A study of Mus musculus with 69 samples.

Results

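The genes described here are the feedback regulators of NF-kB, a family of transcription factors that switch on inflammatory genes. The list held 9 genes, namely Nfkbiz, Nfkbia, Nfkbie, Tnfaip3, Nfkb1, Nfkb2, Relb, Bcl3 and Birc3. Of these, 8 were among the 17628 genes tested. A member was taken as measured where the transcript identifier of a probe mapped to its symbol, with the median taken over probes. This held for 8 of the 9 genes with 1 probe each, and all 8 probes were well above background on 69 of 69 arrays. No probe mapped to Nfkb1, and it was not analysed here.

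Lung RNA of female C57BL/6 mice, which had reached the animal house at 5 to 7 weeks of age and were acclimatised for 1 to 3 weeks, was hybridised on 69 arrays, each with the RNA of 1 animal. The mice had received 18, 54 or 162 µg of titanium dioxide nanoparticles, or vehicle alone, in 1 instillation into the trachea. The vehicle of all groups was water with 2% serum, and the particles were NRCWE-001, which was unmodified, and NRCWE-002, which carried a positive surface charge. Lungs were taken on day 1 or day 28, which gave 14 groups of 5 mice, except for 4 vehicle mice on day 28. Vehicle mice of each day served both particles. A small piece of frozen lung was extracted, so fewer cells of a type and less RNA per cell could not be told apart. The study asked how the properties of a particle relate to the response of the lung, and the comparisons below ask how the feedback regulators differed with dose, particle and day. Each value is a log2 ratio of lung RNA to a common mouse reference RNA, and a log2 fold change is the difference of such means between exposed and vehicle mice.

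NF-kB is held in the cytoplasm by IkB proteins. Receptors for bacterial products and for cytokines activate the IKK kinases, which mark IkB for destruction and release NF-kB to the nucleus. Among the genes that NF-kB then switches on are those of its own inhibitors and subunits, which closes a feedback loop. In lung this pathway is known for the acute response to inhaled particles and microbes, in which epithelium and macrophages release chemokines that draw in neutrophils.

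The promoters of the members are shown first, because a κB site, the DNA element that NF-kB binds, is the sequence through which a gene can answer to it. RefSeq promoter windows of 300 bases, 250 before and 50 after a transcription start, were at hand for 6 of the members on build GRCm38.p6. For Nfkb2 and Bcl3 several transcript starts can be listed, and the window shown is that of 1 of them. The κB consensus was searched on both strands. The stretches below surround its matches, which are in capitals, and positions are counted from the transcription start, with -1 as the base before it.
Nfkbia: ctgactggcttGGAAATTCCCcgcgcctga
Nfkbie: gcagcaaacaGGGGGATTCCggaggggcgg
Tnfaip3: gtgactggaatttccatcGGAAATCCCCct
Nfkb2, upstream match: gggatcgtcacGGGAATTCCCCccctcggg
Nfkb2, match at the start: ccctcggggggccgaaaGGGGCTTTCCc
Bcl3: agtcggcggcagGGGAAGTCCCgctgcccg

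The Nfkbia stretch lies at chr12:55492658-55492687 on the minus strand, and its match covers -29 to -20. The match of Nfkbie covers -106 to -97 of a stretch at chr17:45555584-45555613 on the plus strand. That of Tnfaip3 covers -12 to -3 of chr10:19015411-19015440 on the minus strand, and a further match lay farther upstream. The Nfkb2 stretches are chr19:46304687-46304716 and chr19:46304709-46304736 on the plus strand, and the capitals of the upstream one join overlapping matches. The Bcl3 match lies just past the start, at 3 to 12, within chr7:19822736-19822765 on the minus strand. The windows of 5 of the 6 members, or 83.3%, held the κB consensus, and Birc3 was the exception. It was present in 5.14% of 27025 genes with a window and in 6.03% of the 13992 of these that were tested on the arrays. These matches describe the letters of the windows and do not show binding. Nfkbiz, Relb and Nfkb1 have no window shown.

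Some arrays stood apart before any comparison. The 3 arrays of 1 slide, which are replicate 2 of each NRCWE-002 dose on day 28, had a mean correlation of 0.870 with the arrays of other slides, against 0.925 for the next lowest slide. Day 28 values of NRCWE-002 are therefore also given without it for several members, Nfkb2 among them. On day 1, Saa3, an acute phase gene of the lung, had a log2 ratio of -3.78 to -3.04 in vehicle mice. It lay at -3.51 in replicate 5 of NRCWE-001 162 µg, whereas the other 4 mice of that group had 3.72 to 5.14. Replicates 4 and 5 of NRCWE-001 54 µg had -3.68 and -3.94, against 1.58 to 3.85 in the other 3. Lung markers such as Sftpc of alveolar type 2 cells, Scgb1a1 of club cells and Pecam1 of endothelium were well above background on 69 arrays. Arrays of 1 slide resembled each other, with a consensus correlation of 0.470.

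On day 1 the means of the feedback regulators lay above vehicle at the 2 higher doses of both particles, for Bcl3 at 54 µg of NRCWE-001 by only 0.0021. At 162 µg, the log2 fold changes of the 8 members ran from 0.31 to 0.99 for NRCWE-001, with a median of 0.46, and from 0.48 to 0.70 for NRCWE-002, with a median of 0.65. Over all genes the median was 0.0071 and 0.012, and the 95th percentile was 0.28 and 0.31. All 8 members lay above vehicle in both comparisons, where 53.1% and 54.9% of all genes did. By limma with Benjamini-Hochberg adjustment over all genes, 1 member rose with each particle, which was Nfkbiz with NRCWE-001 and Nfkbia with NRCWE-002. Over all genes, 0.579% and 0.596% passed the same adjusted p of 0.05. At an unadjusted p of 0.05, 5 members passed with NRCWE-001 and 8 with NRCWE-002, beside 7.07% and 8.94% of all genes.

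**Figure D1:**
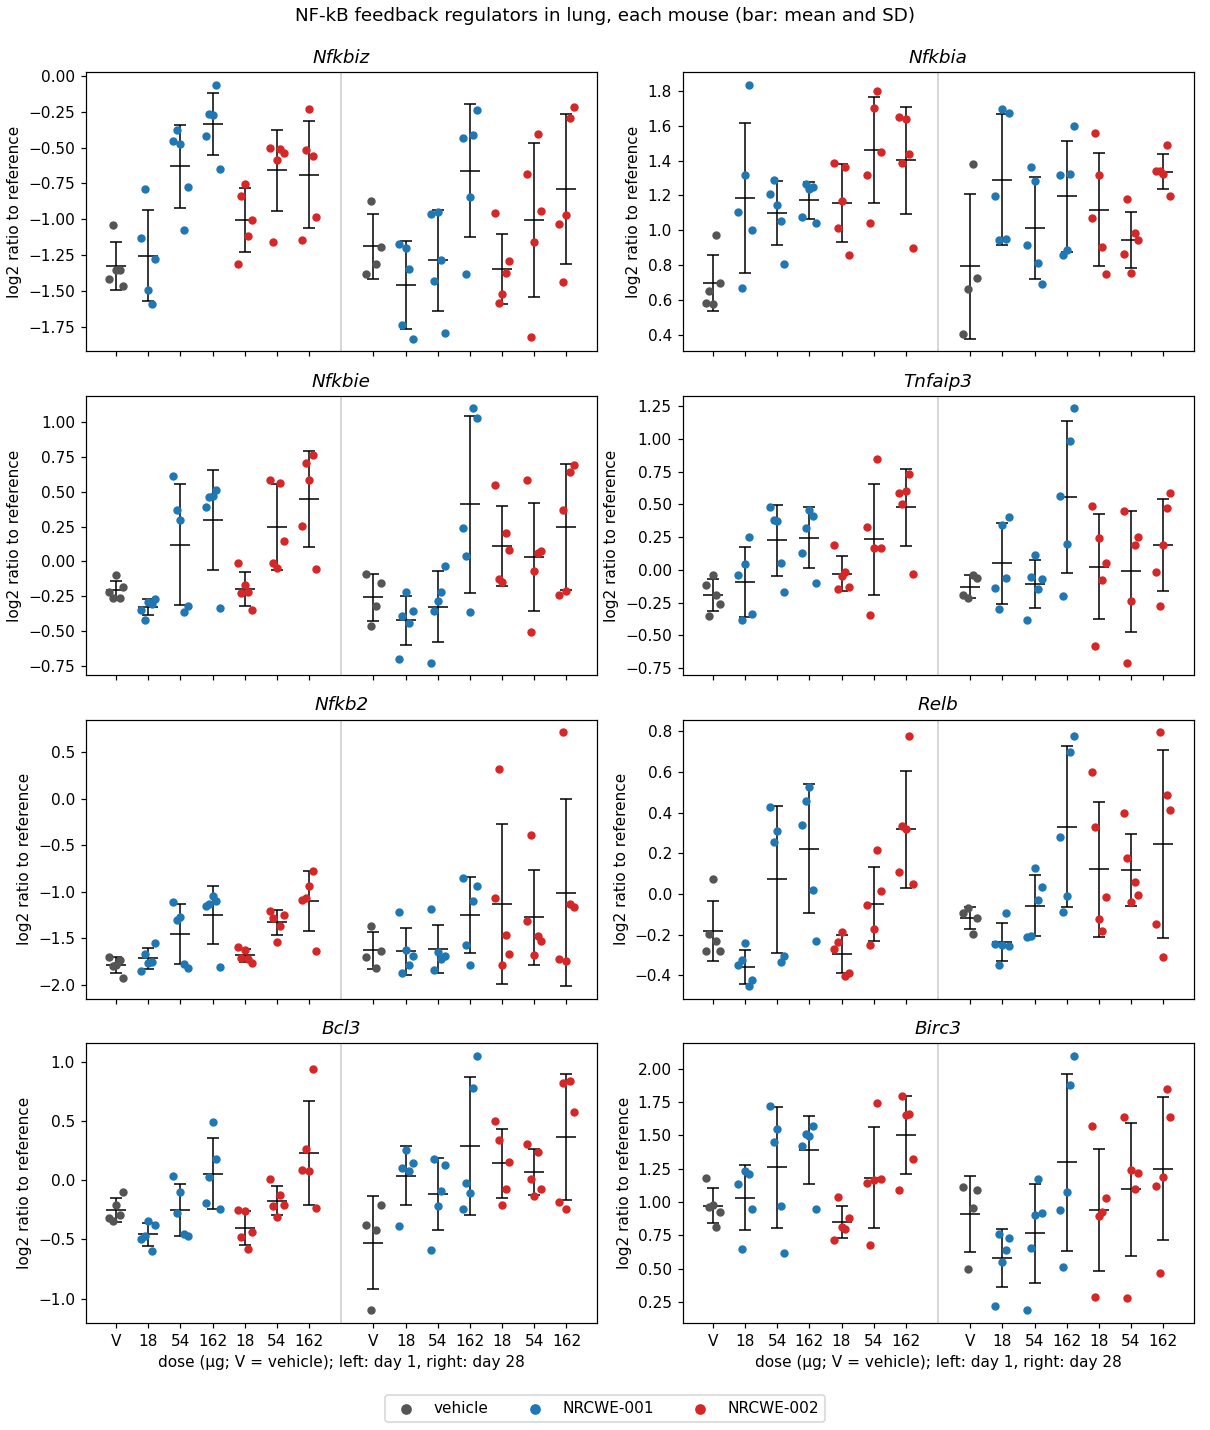
Log2 ratio to the reference RNA (y axis) of each of the 8 measured members in each mouse (points), by dose in µg (x axis; V is vehicle), with day 1 at the left of each panel and day 28 at the right. Bars show the mean and SD of a group. The 5 NRCWE-001 162 µg mice of day 1 sit between -0.65 and -0.06 for Nfkbiz, all above the vehicle mice, whose highest value is -1.04.

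The inhibitors of the IkB family come first. Nfkbiz encodes IkB-zeta, a nuclear IkB protein that helps NF-kB to activate a second wave of genes. Its log2 ratio in the 5 vehicle mice of day 1 was -1.42, -1.04, -1.35, -1.35 and -1.47. In the NRCWE-001 162 µg mice it was -0.42, -0.27, -0.28, -0.06 and -0.65. The groups did not overlap, as was the case for 2 members, Nfkbiz and Nfkbia, and for 1.99% of all genes. Nfkbiz rose 1.99-fold, a log2 fold change of 0.99 (SE 0.21, 95% interval 0.56 to 1.42, adjusted p = 0.0123).

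At 54 µg of NRCWE-001 the Nfkbiz ratios were -0.45, -0.38, -0.48, -1.08 and -0.78. The fourth mouse, which had a Saa3 level like that of vehicle, fell within the vehicle range. The fifth, whose Saa3 level was below that of vehicle, lay above all vehicle mice for Nfkbiz. The log2 fold change was 0.69 (SE 0.21, adjusted p = 0.604, unadjusted p = 0.00182). It passed with slide as a random block (0.73, adjusted p = 0.0420). At 18 µg the mean differed from vehicle by 0.07. The moderated F-test over the 3 doses passed for Nfkbiz alone among the members (F = 10.3, adjusted p = 0.00766), beside 0.698% of all genes.

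With NRCWE-002, the Nfkbiz ratios at 54 µg were -0.50, -1.16, -0.59, -0.51 and -0.54. At 162 µg they were -1.14, -0.52, -0.23, -0.56 and -0.99, so that the first mouse lay among the vehicle mice. The log2 fold changes of 0.67 and 0.64 had adjusted p-values of 0.393 and 0.191. With slide as a block, Nfkbiz passed at 54 µg (0.82, adjusted p = 0.0337 as a fixed block, and 0.78, adjusted p = 0.0188 as a random block). At 162 µg it passed with slide as a random block (0.69, adjusted p = 0.0384) and with scan day as a block (0.71, adjusted p = 0.0397), but not with slide as a fixed block (0.72, adjusted p = 0.0896). The difference between the particles at 162 µg was -0.35 for NRCWE-002 minus NRCWE-001, with a 95% interval of -0.78 to 0.07, so this gene is not shown to differ between them.

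Nfkbia encodes IkB-alpha, the inhibitor that is degraded and then made anew in each round of NF-kB activity. Its ratios in vehicle mice of day 1 were 0.58, 0.65, 0.58, 0.97 and 0.70. They were 1.31, 1.04, 1.70, 1.80 and 1.45 at 54 µg of NRCWE-002 and 1.65, 1.38, 1.64, 1.43 and 0.90 at 162 µg. All mice of the 54 µg group exceeded all vehicle mice, and at 162 µg the fifth mouse lay below the highest vehicle mouse. At 162 µg Nfkbia rose 1.63-fold, a log2 fold change of 0.70 (SE 0.18, 95% interval 0.35 to 1.06, adjusted p = 0.0365). This call was lost in 8 of the 10 fits that left out 1 mouse and with the scanner's processed signals (0.74, adjusted p = 0.0762). At 54 µg the difference was 0.77 (SE 0.18) and did not pass (adjusted p = 0.0556, where 0.0624% of all genes passed). Its F-test over the NRCWE-002 doses passed (F = 7.87, adjusted p = 0.0313, beside 0.823% of all genes). That F-test call was lost in 10 of the 20 fits that left out 1 mouse and with the scanner's processed signals. No other member passed this F-test in the main fit, while 7 of 8 had an unadjusted p under 0.05 in it, beside 7.79% of all genes. The NRCWE-001 test had 4 such members, beside 7.87%.

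Nfkbia was also above vehicle by 0.49, 0.40 and 0.48 at 18, 54 and 162 µg of NRCWE-001 and by 0.46 at 18 µg of NRCWE-002. It was the only member with an unadjusted p under 0.05 at the lowest dose on day 1, and none of these 4 differences passed the adjusted test. Over all genes, 0% passed the adjusted test at 18 µg of either particle and at 54 µg of NRCWE-001. At 162 µg of NRCWE-001 its ratios of 1.08, 1.26, 1.24, 1.25 and 1.04 all exceeded those of vehicle.

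Nfkbie encodes IkB-epsilon, another cytoplasmic inhibitor. Vehicle mice of day 1 lay between -0.26 and -0.10. At 162 µg of NRCWE-001 the ratios were 0.39, 0.46, 0.47, 0.51 and -0.33, so that 4 mice lay above the vehicle range and replicate 5 below it. At 162 µg of NRCWE-002 they were 0.25, 0.70, 0.58, 0.76 and -0.06, all above vehicle. The log2 fold changes were 0.50 (SE 0.20, adjusted p = 0.470) and 0.65 (SE 0.20, adjusted p = 0.148). Bcl3, a nuclear IkB protein that pairs with NF-kB subunits on DNA, had the smallest differences of the members with both particles at 162 µg on day 1, with 0.31 (SE 0.20) and 0.48 (SE 0.20). Its ratios overlapped those of vehicle in both groups.

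The enzymes of the feedback loop follow. Tnfaip3 encodes a ubiquitin-editing enzyme that ends signalling from the receptors to IKK. Vehicle mice of day 1 lay between -0.35 and -0.04, and NRCWE-002 162 µg mice had 0.59, 0.50, 0.60, 0.73 and -0.03. The groups did not overlap, although replicate 5 at -0.030 lay only just above the highest vehicle mouse at -0.035. The log2 fold change was 0.67 (SE 0.20, adjusted p = 0.125), and 0.44 (SE 0.20, adjusted p = 0.617) with NRCWE-001. Birc3, a ubiquitin ligase of the inhibitor-of-apoptosis family that acts at tumour necrosis factor receptors, lay 0.42 (SE 0.24) and 0.53 (SE 0.24) above vehicle. Its NRCWE-002 162 µg ratios were 1.09, 1.80, 1.65, 1.66 and 1.32, and the first of these lay below the highest vehicle mouse at 1.18.

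The last members are subunits of NF-kB itself. Nfkb2 encodes a precursor that restrains NF-kB until it is processed to a subunit of the alternative pathway, and Relb encodes the partner of that subunit. Nfkb2 ratios in vehicle mice of day 1 were -1.70, -1.80, -1.79, -1.73 and -1.93. They were -1.21, -1.28, -1.55, -1.37 and -1.25 at 54 µg of NRCWE-002 and -1.09, -1.07, -0.94, -0.78 and -1.63 at 162 µg, and both dose groups lay above all vehicle mice. The log2 fold changes were 0.46 (SE 0.27) and 0.69 (SE 0.27, adjusted p = 0.339). Without the slide that stood apart, whose arrays enter a day 1 comparison only through the shared estimate of the spread, Nfkb2 (adjusted p = 0.0128) and Tnfaip3 (adjusted p = 0.0461) passed at 162 µg beside Nfkbia, which made 3 members. Over all genes, 226 passed there, against 105 with that slide. Relb lay 0.40 (SE 0.16) and 0.50 (SE 0.16) above vehicle at 162 µg, and its ratios overlapped those of vehicle in both groups.

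Groups that did not overlap with vehicle were counted for all members. With NRCWE-002 on day 1 there were 3 such members at 54 µg, namely Nfkb2, Nfkbia and Nfkbie, beside 1.70% of all genes. There were 3 at 162 µg, namely Nfkb2, Nfkbie and Tnfaip3, beside 3.55%. No member did so at 18 µg of either particle or at 54 µg of NRCWE-001, where 0.919%, 0.942% and 2.05% of all genes did.

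**Figure D2:**
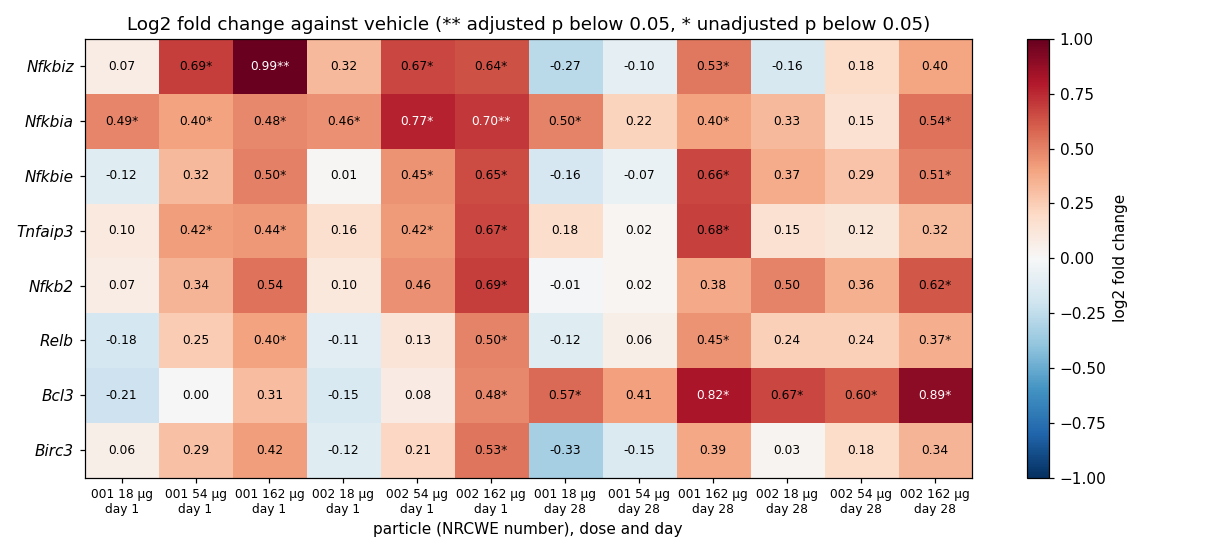
Log2 fold change against vehicle of the same day (colour and printed value) for the 8 measured members (rows) in the 12 comparisons of particle, dose and day (columns). Double stars mark an adjusted p below 0.05 and single stars an unadjusted p below 0.05. The double stars are at Nfkbiz for NRCWE-001 162 µg (0.99) and Nfkbia for NRCWE-002 162 µg (0.70), both on day 1.

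The doses differed in how many members lay above vehicle on day 1. At 18 µg, 5 of 8 did with either particle, and their medians were 0.07 with NRCWE-001 and 0.06 with NRCWE-002. At 54 µg, 8 of 8 did, with medians of 0.33 and 0.44. The lowest was Bcl3 with both, at 0.0021 and 0.08. Between 47.8% and 54.2% of all genes lay above vehicle in these 4 comparisons. At an unadjusted p of 0.05, 1 member passed at 18 µg of each particle, and 3 and 4 passed at 54 µg of NRCWE-001 and NRCWE-002. Over all genes, 4.91% and 2.97% did so at 18 µg, and 4.55% and 5.83% at 54 µg. The means at 18 µg were below vehicle for Bcl3 and Relb with both particles, for Nfkbie with NRCWE-001 and for Birc3 with NRCWE-002, by at most 0.21.

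Mice within a group differed from each other for many members at once. Replicate 5 of NRCWE-001 162 µg on day 1 was the lowest of its group for 8 of 8 members. Replicates 4 and 5 of NRCWE-001 54 µg were the lowest pair of their group for 8 of 8. Replicate 5 of NRCWE-002 162 µg, with a Saa3 ratio of -0.57 against 3.49 to 4.41 in the other 4, was among the lowest pair for 8 of 8. In the 3 NRCWE-001 mice named here Saa3 was within or below the range of vehicle, as it also was in replicate 3 of NRCWE-001 18 µg (-3.42) and replicate 2 of NRCWE-002 18 µg (-3.49). The part of Saa3 or of the exposure each mouse received in these values was not tested. Without replicate 5 of NRCWE-001 162 µg, the log2 fold change of Nfkbiz was 1.07 (adjusted p = 0.00270), and without replicate 4, the highest mouse, it was 0.92 and did not pass (adjusted p = 0.107).

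A slide holds up to 4 arrays, and some slides held vehicle and exposed mice of the same day. On the 3 slides shared by vehicle and NRCWE-001 on day 1, Nfkbiz lay above vehicle by 1.00, 0.77 and 1.07 at 162 µg and by 0.97, 0.66 and 0.87 at 54 µg. All 8 members were higher on all 3 slides at both doses, with differences of 0.13 to 1.07 at 162 µg. Over all genes, 21.9% and 20.4% were higher on all 3 slides. These slides held replicates 1 to 3. Replicates 4 and 5 of both doses, among them the mice with Saa3 within or below the range of vehicle, shared no slide with vehicle. On the 2 slides shared with NRCWE-002 162 µg, Nfkbia lay above vehicle by 0.67 and 0.94, and 8 of 8 members were higher on both, beside 31.9% of all genes. The exposed mice there were replicates 1 and 3. Replicate 5, with the lowest Saa3 ratio of that group, shared no slide with vehicle. With slide as a fixed block, the log2 fold change of Nfkbiz for NRCWE-001 was 0.98 (adjusted p = 0.00257). That of Nfkbia for NRCWE-002 was 0.60 (adjusted p = 0.164), so its call was lost. The count of members called there stayed at 1, because another member passed in that fit. With slide as a random block, the log2 fold change of Nfkbia was 0.64 (adjusted p = 0.0375). On day 28, all 8 members were higher than vehicle at 162 µg on the 1 slide shared with NRCWE-001, beside 49.5% of all genes. On the 2 slides shared with NRCWE-002 162 µg, 4 were higher on both, beside 24% of all genes, and Nfkbie, Nfkb2 and Relb were lower on both. Those 2 slides held replicates 1 and 3, whose Saa3 ratios of -3.46 and -3.27 were near those of vehicle (-3.74 to -3.46). Replicates 2, 4 and 5, with Saa3 ratios of -0.76 to 0.79, shared no slide with vehicle.

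**Figure D3:**
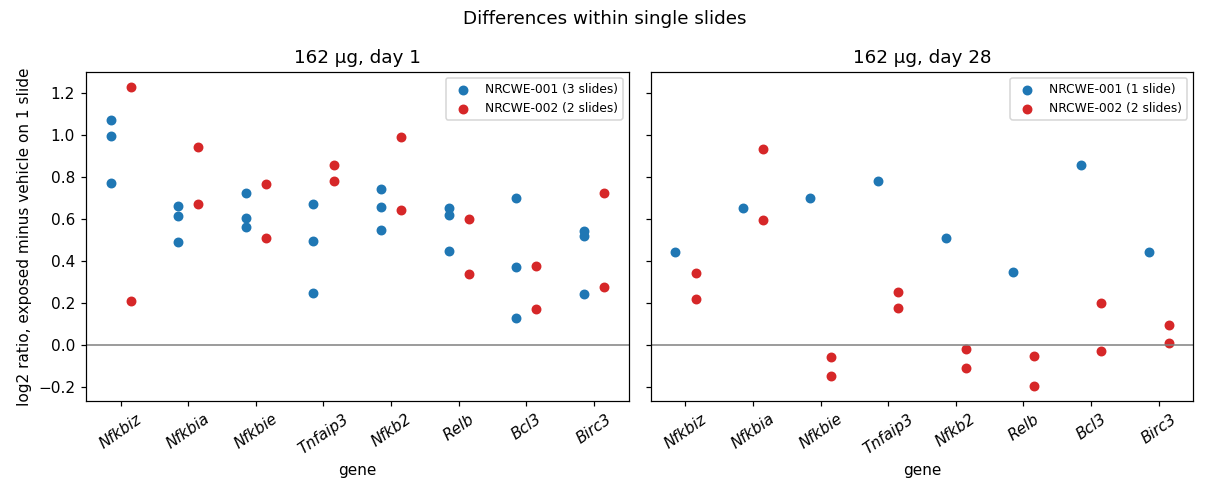
Log2 ratio of the exposed mouse minus that of the vehicle mouse on the same slide (y axis) for each member (x axis) at 162 µg, with day 1 at the left and day 28 at the right. Each point is 1 slide. On day 1 all points lie above 0, from 0.13 to 1.23, whereas on day 28 the points of NRCWE-002 run from -0.20 to 0.94. Mice on slides without a vehicle mouse have no point, among them replicate 5 of either particle on day 1. The day 28 points of NRCWE-002 are replicates 1 and 3.

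On day 28 no member passed the adjusted test at any dose, beside 0.193% of all genes at 18 µg of NRCWE-001 and 0% at 54 µg of NRCWE-001 and at 18 and 54 µg of NRCWE-002. At 162 µg all 8 members still lay above vehicle with both particles, where 46.5% and 46.8% of all genes did. Log2 fold changes ran from 0.38 to 0.82 for NRCWE-001, with a median of 0.49, and from 0.32 to 0.89 for NRCWE-002, with a median of 0.45. The 95th percentile of all genes was 0.25 and 0.26. Over all genes, 0.0454% and 0.00567% passed the adjusted test. At an unadjusted p of 0.05, 6 members passed with NRCWE-001 and 5 with NRCWE-002, beside 8.63% and 6.71% of all genes. At 18 and 54 µg, 3 and 5 of 8 members lay above vehicle with NRCWE-001, beside 46.1% and 47.5% of all genes, and 7 and 8 did with NRCWE-002, beside 49% and 50.1%. At an unadjusted p of 0.05, 2 members passed at 18 µg of NRCWE-001 and none at 54 µg, beside 8.16% and 2.90% of all genes. With NRCWE-002, 1 member passed at each of these doses, beside 6.08% and 4.96%.

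Bcl3 had the largest difference of the members with both particles at 162 µg on day 28. Its ratios were -0.38, -1.10, -0.43 and -0.21 in the 4 vehicle mice. They were -0.24, -0.02, -0.11, 0.78 and 1.05 with NRCWE-001 and -0.18, 0.82, -0.24, 0.84 and 0.57 with NRCWE-002. The lowest exposed mouse of either group lay just below the highest vehicle mouse. The log2 fold changes were 0.82 (SE 0.21, adjusted p = 0.124) and 0.89 (SE 0.21, adjusted p = 0.132). Without vehicle replicate 2, the mouse at -1.10, they were 0.63 and 0.70. On the slides shared with vehicle the differences were 0.86 on the 1 slide with NRCWE-001 and 0.20 and -0.03 on the 2 slides with NRCWE-002. Those 2 slides held replicates 1 and 3, the lowest pair of that group for Bcl3.

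Bcl3 also lay above vehicle on day 28 at the lower doses, by 0.57 and 0.41 at 18 and 54 µg of NRCWE-001 and by 0.67 and 0.60 with NRCWE-002. Without vehicle replicate 2 these differences were 0.38, 0.22, 0.48 and 0.41. With NRCWE-002 at 18 µg its ratios were 0.50, 0.34, -0.21, -0.07 and 0.15. At 54 µg they were 0.30, 0.01, -0.13, 0.24 and -0.08, and both groups lay above all 4 vehicle mice, at 18 µg by less than 0.01. At 54 µg Relb did so too, and no other member did. Of all genes, 0.647% and 0.681% were without overlap in these comparisons. None of the 4 differences passed the adjusted test. No member was without overlap at 162 µg of either particle on day 28, where 0.709% and 0.414% of all genes were.

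In other members the mice of a day 28 group lay far apart. At 162 µg of NRCWE-001, Nfkbie had ratios of 0.24, 0.04, -0.36, 1.09 and 1.03, and Tnfaip3 had 0.57, -0.20, 0.20, 0.99 and 1.23. Replicates 4 and 5 were the highest in both genes, and their Lcn2 ratios of 4.40 and 4.34 were the highest of the group as well. Lcn2 encodes lipocalin, an iron-sequestering NF-kB target. Replicate 2, at -0.20 for Tnfaip3, had a Lcn2 ratio of 0.99, and replicate 3, at -0.36 for Nfkbie, had 1.29. The log2 fold changes were 0.66 (SE 0.22, adjusted p = 0.264) for Nfkbie and 0.68 (SE 0.21, adjusted p = 0.252) for Tnfaip3. Without replicate 2, Tnfaip3 and Bcl3 passed, and without replicate 3, Nfkbie and Bcl3 passed. Over all genes, 70 and 85 passed in these fits, against 8 with all mice.

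Nfkb2 showed the mark of the slide that stood apart. Its ratios at 18, 54 and 162 µg of NRCWE-002 on day 28 were 0.32, -0.39 and 0.71 on that slide, whereas the other 12 mice of these groups lay between -1.79 and -1.07. Its log2 fold changes of 0.50, 0.36 and 0.62 became 0.14, 0.13 and 0.19 without that slide. Relb changed from 0.37 to 0.23 at 162 µg, while Nfkbiz changed from 0.40 to 0.56 and Bcl3 from 0.89 to 0.78. Nfkbia at 162 µg of NRCWE-002 had the smallest SD of the members in that group (0.10), with ratios of 1.34, 1.34, 1.32, 1.49 and 1.20. The vehicle mice had 0.40, 0.66, 1.38 and 0.72, and the third of these lay within the exposed group. The difference was 0.54 (SE 0.19, adjusted p = 0.555), and it was 0.54 without that slide too.

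The F-test over doses on day 28 passed for no member with either particle, beside 0.477% (NRCWE-001) and 0% (NRCWE-002) of all genes. At an unadjusted p of 0.05 it passed for 7 and 2 members, beside 9.03% and 4.35% of all genes. Nfkbie with NRCWE-001 came nearest to the threshold (adjusted p = 0.0779).

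The particles differ in surface charge, and NRCWE-002 was set against NRCWE-001 as a mean over the 3 doses. On day 1 no member differed by the adjusted test, beside 0.125% of all genes, and none had an unadjusted p under 0.05, beside 7.32% of all genes. Differences ran from -0.05 for Birc3 to 0.19 for Nfkbia, whose 95% interval was -0.02 to 0.39. On day 28 no member passed, beside 4.75% of all genes, and Nfkb2 (0.36, interval 0.05 to 0.68) and Nfkbie (0.24, interval 0.01 to 0.48) had unadjusted p-values under 0.05, as did 22.2% of all genes. Without the slide that stood apart, the difference was 0.02 for Nfkb2 (unadjusted p = 0.807) and 0.30 for Nfkbie. At matched doses, 8 members at 3 doses on each of 2 days, no member passed. Of all genes, 0%, 0.13% and 0% did at 18, 54 and 162 µg on day 1, and 0.119%, 0.0284% and 0% on day 28. The widest differences were 0.53 for Nfkbie (interval 0.12 to 0.94) and 0.51 for Nfkb2 (interval -0.04 to 1.06), both at 18 µg on day 28. Without that slide they were 0.59 and 0.14. At 162 µg on day 1, Nfkbia was 0.23 higher with NRCWE-002 (interval -0.12 to 0.58) and Tnfaip3 0.23 higher (interval -0.17 to 0.64). These intervals do not show that the particles acted alike.

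The change of the effect from day 1 to day 28 was tested as an interaction. At 162 µg no member passed for either particle, where 0% of all genes did, and none had an unadjusted p under 0.05, beside 4.35% and 6.70% of all genes. The estimate for Bcl3 was 0.51 (interval -0.06 to 1.09) with NRCWE-001 and 0.41 (interval -0.16 to 0.99) with NRCWE-002, and 0.32 and 0.22 without vehicle replicate 2 of day 28. For Nfkbiz it was -0.46 (interval -1.08 to 0.16) and -0.24 (interval -0.86 to 0.38). At 54 µg of NRCWE-001, Nfkbiz had an estimate of -0.79 (interval -1.41 to -0.17, adjusted p = 0.941, beside 0% of all genes called). Its log2 fold change there was 0.69 on day 1 and -0.10 on day 28. Between vehicle mice of day 28 and day 1 no member passed, with 0% of all genes called, and none had an unadjusted p under 0.05 where 5.75% of all genes did.

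Across the 14 groups, Nfkbiz had its lowest mean of -1.46 in NRCWE-001 18 µg mice of day 28 and its highest of -0.34 in NRCWE-001 162 µg mice of day 1. Nfkbia ran from 0.70 in vehicle mice of day 1 to 1.46 in NRCWE-002 54 µg mice of day 1. Tnfaip3 and Nfkb2 also had their lowest mean in vehicle mice of day 1. Relb had its lowest in NRCWE-001 18 µg mice of day 1 and Bcl3 in vehicle mice of day 28, or in NRCWE-001 18 µg mice of day 1 once vehicle replicate 2 was left out. Nfkbie and Birc3 had their highest mean in NRCWE-002 162 µg mice of day 1, and Nfkb2 and Bcl3 in those of day 28. Without the slide that stood apart, the highest mean was in NRCWE-002 162 µg mice of day 1 for Nfkb2 (-1.10) and in NRCWE-001 162 µg mice of day 28 for Bcl3 (0.29). When the groups were ordered by their means, neighbours differed by more than the pooled SD of both groups in 1 of 13 pairs for Nfkbiz and for Bcl3 and in 0 of 13 for the other 6 members.

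Pairs of members were compared over the 69 arrays, without a like value for pairs of all genes. The 28 pairs had Pearson correlations of 0.05 for Nfkb2 with Birc3 to 0.82 for Nfkbie with Relb, with a median of 0.54. After the group means were taken out, the median was 0.46, and 25 of 28 stayed above 0. Nfkb2, which showed the mark of the slide that stood apart, was in each pair below 0. These were its pairs with Birc3 (-0.24), Tnfaip3 (-0.12) and Nfkbiz (-0.0078). Arrays of 1 slide and 1 group share these values, so they describe the arrays and carry no test.

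Among 17506 genes compared, those most like Nfkbiz over the 69 arrays were Cxcl5 (r = 0.79, and 0.68 within groups), Noxo1 (0.76 and 0.57) and Cxcl3 (0.75 and 0.65). Cxcl5 and Cxcl3 encode chemokines for neutrophils, and Noxo1 organises an NADPH oxidase. Nfkbia was most like Cebpd (0.80 and 0.78), Dusp1 (0.69 and 0.61) and Ddit4 (0.68 and 0.71). These encode a transcription factor of acute responses, a phosphatase that ends MAP kinase signals and an inhibitor of mTOR signalling that is induced by stress. Tnfaip3 was most like Ch25h (0.85 and 0.81), which makes an oxysterol, Malt1 (0.84 and 0.83), a signalling protease, and Rgs1 (0.84 and 0.80), a brake on chemokine receptors. Bcl3 was most like Socs1 (0.82 and 0.83), a brake on cytokine receptors, St3gal1 (0.82 and 0.78), a sialyltransferase, and Sting1 (0.77 and 0.79), a sensor of cyclic dinucleotides.

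The other genes of the pathway were grouped by role, and 85 of 88 listed genes were tested. At 162 µg on day 1, 5 rose with NRCWE-001 and 7 with NRCWE-002, and none fell. The share of all genes called there was 0.579% and 0.596%. Their medians were 0.10 and 0.09, beside 0.46 and 0.65 for the feedback regulators. The upstream part of the pathway had medians near vehicle. At the shares of all genes above, no call is the usual count for lists of 11 or 18 genes. The counts therefore do not set these lists apart. Of 11 genes of the IKK complex and upstream kinases none passed, with medians of 0.04 and -0.02, and of 18 ubiquitin and adaptor genes none passed, with medians of 0.07 and 0.02. Among the 4 other subunits and IkB genes the medians were 0.08 and 0.08. There Nfkbib, which encodes IkB-beta and is named after its values were seen, rose by 0.32 (SE 0.08, adjusted p = 0.0398) with NRCWE-002.

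Where 0.579% and 0.596% of all genes passed at 162 µg on day 1, 1 of 11 ligands rose with each particle. This was Il1b, the gene of the cytokine interleukin-1 beta, by 1.62 (SE 0.36, adjusted p = 0.0145) and 1.67 (SE 0.36, adjusted p = 0.0110). Of 16 receptors and proximal adaptors, 1 rose with each particle, which was Cd14, a co-receptor for endotoxin, by 1.33 and 1.58 (adjusted p = 0.0489 and 0.0110). The 25 target genes had medians of 0.44 and 0.48, and 3 rose with NRCWE-001 and 4 with NRCWE-002. Saa3 rose by 6.11 (SE 1.14, adjusted p = 0.00312) and 6.42 (SE 1.14, adjusted p = 0.00206), and Lcn2 by 2.75 and 3.02. Sod2, a mitochondrial antioxidant enzyme, rose by 0.77 with both. Cxcl5 rose by 3.49 (SE 0.78, adjusted p = 0.0166) with NRCWE-002 and was 2.93 higher (SE 0.78, adjusted p = 0.0614) with NRCWE-001. At 54 µg of NRCWE-002 on day 1, 2 of the 85 genes rose, namely Lcn2 and Saa3, beside 0.0624% of all genes called. On day 28 at 162 µg none of the 85 passed with either particle, beside 0.0454% and 0.00567% of all genes. The target genes had medians of 0.33 and 0.16 there. The κB consensus was in the windows of 8 of the 18 target genes that have one, or 44.4%.

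**Figure D4:**
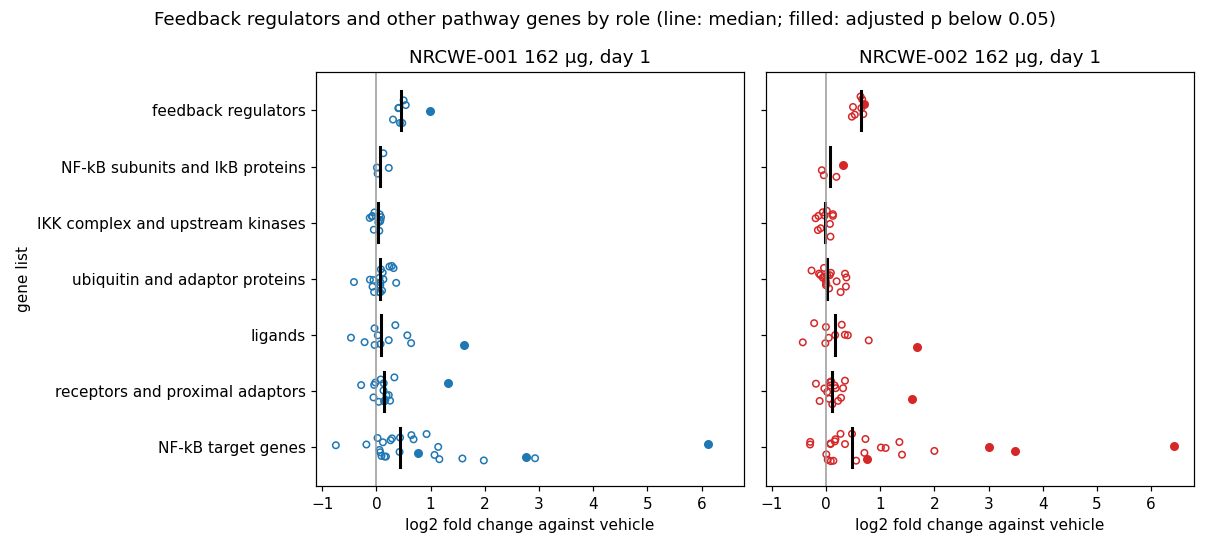
Log2 fold change against vehicle on day 1 (x axis) of each gene tested (points) in the feedback regulators and in the 6 lists of other pathway genes (y axis), at 162 µg of NRCWE-001 (left) and NRCWE-002 (right). Filled points have an adjusted p below 0.05 and black lines are medians, which are 0.46 and 0.65 for the feedback regulators and 0.04 and -0.02 for the IKK complex and upstream kinases.

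Markers of other cells moved with some of these groups. At 162 µg on day 1, 6 of 8 measured neutrophil markers lay above vehicle with each particle, beside 53.1% and 54.9% of all genes. The medians of these markers were 0.61 and 0.42. With NRCWE-001, 2 rose, namely Csf3r and Cxcr2, beside 0.579% of all genes called. The mean level of the 8 neutrophil markers was 1.52 to 2.13 in vehicle mice, 1.69 to 2.74 with NRCWE-001 162 µg and 1.86 to 2.40 with NRCWE-002 162 µg, so the ranges overlapped. On day 28 at 162 µg these medians were 0.03 and -0.09. The 8 measured monocyte and macrophage markers had medians of 0.04 and 0.07 on day 1 and 0.20 and 0.03 on day 28. The 6 cardiac muscle markers had medians of 0.51 and 0.43 on day 1 and of 0.20 and 1.65 on day 28. Their mean level was 0.05 to 1.84 in vehicle mice of day 28 and 1.32 to 3.27 with NRCWE-002 162 µg. The part of these cells in the values of the feedback regulators was not tested.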

How the data were processed

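Lung RNA of 69 mice in 14 groups was measured, 1 mouse per array, with lung RNA in Cy5, a common reference RNA in Cy3 and no dye swap, so ratios are open to dye bias. The deposited scanner files hold the intensity and local background of each spot, which the authors obtained in Agilent Feature Extraction 11.0.1.1. The deposited series table holds log2 ratios of the same arrays made by the authors, with column medians of -0.0586 to -0.00264. It correlated at 0.987 to 0.995 with the ratios used here and served as an alternative.

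Intensities were background-corrected (normexp, offset 50, spots with a local background more than 10 median absolute deviations out left out of its fit) and loess-normalised within arrays in limma 3.58.1 and R 4.3.3. Control and outlier spots were left out. Probes well above background on at least 4 arrays were kept (36452 of 41174). Gene names came from transcript accessions matched to RefSeq tables (27479 probes, 66.74%), and 25826 probes were both kept and matched. A gene is the median of its probes. One limma fit of 14 group means gave all comparisons, with Benjamini-Hochberg adjustment over 17628 genes and a threshold of 0.05. The script was tested on simulated data. Well above background were 61.4% to 87.8% of probes in the sample channel, median intensities were 106 to 216 against a background of 62 to 81, and the number of arrays limits the precision. The p-values measure the spread between mice within groups, pooled over the 14 groups, and the main fit holds no term for slide.

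Named were the members, up to 6 other pathway genes per particle and day with the smallest p among those called at 162 µg, the 3 genes most like each of 4 members, and up to 3 examples of a marker list. Marker lists other than those reported (T cell, B cell, alveolar type 1 and 2, club, ciliated and endothelial cell, adipocyte, red blood cell) held 1 called gene with each particle at 162 µg on day 1, Pdpn of alveolar type 1, and none on day 28. At that dose 0.579% and 0.596% of all genes passed on day 1, and 0.0454% and 0.00567% on day 28. The members and lists were chosen with earlier results of these data known. Alternatives were the authors' ratios, no background correction, scanner-processed signals, normalisation between arrays, no probe filter, the mean over probes, slide or scan day as a block, and leaving out each mouse.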

Additional observations from a re-analysis of the deposited data

Results flagged for a closer look

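Dixon's test of the highest or lowest mouse of a group was made in 112 groups of 4 or 5 mice (8 members in 14 groups) and picked out 9. Chance picks out about 1 in 20 groups. In NRCWE-001 162 µg mice of day 1, replicate 5 was far below the others for Nfkbie (-0.33, next 0.39), Nfkb2 (-1.81, next -1.16) and Birc3 (0.95, next 1.42). In NRCWE-002 54 µg mice of day 1, replicate 2 was low for Nfkbiz (-1.16, next -0.59). Replicate 2 of NRCWE-002 on day 28, from the slide that stood apart, was high for Nfkb2 at 54 µg (-0.39, next -1.32) and at 162 µg (0.71, next -1.13). In vehicle mice of day 1, replicate 2 was high for Nfkbiz (-1.04, next -1.35) and replicate 3 for Relb (0.076, next -0.20). In NRCWE-001 18 µg mice of day 28, replicate 1 was low for Bcl3 (-0.38, next 0.08).

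The effect of 18 µg on Bcl3 differed between day 28 and day 1 before adjustment over all genes. With NRCWE-001 the log2 fold change was -0.21 on day 1 and 0.57 on day 28, a difference of 0.77 (limma interaction, unadjusted p = 0.00946, adjusted p = 0.883). With NRCWE-002 it was -0.15 and 0.67, a difference of 0.82 (unadjusted p = 0.00606, adjusted p = 1.00). Without vehicle replicate 2 of day 28 the differences were 0.58 (unadjusted p = 0.0510) and 0.63 (unadjusted p = 0.0354). Neither passed the adjustment, both use the same vehicle mice, and the 18 µg contrast was chosen after the data were seen.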

How the results depend on the processing

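No member changed direction at 162 µg under any alternative. Counts of members called that moved were as follows. With slide as a fixed block, 2 were called for NRCWE-001 162 µg, 3 for NRCWE-002 54 µg and 4 for the dose effect of NRCWE-001, all on day 1. Of all genes, 772, 242 and 1309 were called there, against 102, 11 and 123 in the main fit. With slide as a random block, 1 was called for NRCWE-001 54 µg, 2 for NRCWE-002 54 µg, 4 for NRCWE-002 162 µg, 3 and 2 for the dose effects of NRCWE-001 and NRCWE-002 on day 1, and 2 for NRCWE-001 on day 28. In that order 78, 193, 512, 1005, 503 and 506 of all genes were called, against 0, 11, 105, 123, 145 and 84 in the main fit. With scan day as a block, the counts on day 1 were 2 for NRCWE-001 162 µg, 1 and 5 for NRCWE-002 54 and 162 µg, and 3 and 2 for the dose effects. The counts over all genes there were 754, 137, 787, 1162 and 723, against 102, 11, 105, 123 and 145 in the main fit. Genes called over all 17628 rose as well, for NRCWE-002 162 µg on day 1 from 105 to 512 and 787 under the last 2 settings. The cause was not tested. Without the slide that stood apart, 1 and 3 were called for NRCWE-002 54 and 162 µg on day 1, 2 for its dose effect, and 1 for the dose effect of NRCWE-001 on day 28. There 33, 226, 345 and 236 of all genes were called, against 11, 105, 145 and 84 in the main fit. Without background correction, NRCWE-002 54 µg on day 1 had 1, with 20 of all genes called. Scanner-processed signals gave 0 for NRCWE-002 162 µg and its dose effect on day 1 (Nfkbia 0.74, adjusted p = 0.0762), and these and the authors' ratios gave 1, Nfkbie, for the dose effect of NRCWE-001 on day 28. The processed signals called 70, 101 and 94 of all genes in these tests, and the authors' ratios called 121 in the last. Leaving out each mouse gave 0 to 1 for NRCWE-001 162 µg on day 1 (0 without its replicate 4, Nfkbiz 0.92, adjusted p = 0.107), 0 to 1 for NRCWE-002 54 µg (1, Nfkbia, without its replicate 2) and 0 to 3 for NRCWE-002 162 µg. There Nfkbia was lost without any vehicle mouse but replicate 4 and without any exposed mouse but replicate 5, without which 3 were called. That last fit called 210 of all genes. Without replicate 4 of NRCWE-001 162 µg 14 of all genes were called, and without replicate 2 of NRCWE-002 54 µg 17 were. On day 28 the counts were 0 to 2 for NRCWE-001 162 µg and 0 to 1 for NRCWE-002 162 µg (Bcl3 without replicate 1 or 3, 1.03 and 1.04). Without replicate 2 or 3 of NRCWE-001, 70 and 85 of all genes were called, against 8 in the main fit. Without replicate 1 or 3 of NRCWE-002, 69 and 46 were, against 1. The dose effects gave 1 to 2 and 0 to 1 for NRCWE-001 and NRCWE-002 on day 1 and 0 to 3 for NRCWE-001 on day 28. The fits with the highest counts for NRCWE-001 called 299 and 283 of all genes, against 123 and 84 in the main fit. No paired analysis was possible because replicate numbers were given in accession order and pair no mice, so shared slides were used only through the slide blocks and the differences within slides.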
